A study of Solanum lycopersicum with 9 samples.

Results

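SBP-box (SPL) genes of tomato were followed in RNA-Seq libraries from plants that overexpress the transcription factor WRKY-B and from control plants. The family was taken as 10 loci listed by ID, of which CNR (Solyc02g077920), SBP3 (Solyc10g009080), SBP15 (Solyc10g078700) and SBP13 (Solyc05g015840) carry names. The other 6 loci are given by ID. All 10 loci were in the deposited table, as 15 of its 33989 gene models, because 5 loci had a pair of gene models and 5 had a single one.

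SBP-box proteins are plant-specific transcription factors that bind DNA through a zinc-binding SBP domain at sites with a GTAC core. Many of their transcripts are targets of the microRNA miR156, which is abundant in young shoots and declines as the plant ages, so that SBP-box activity is released at the change from juvenile to adult growth and at flowering. In tomato, CNR is best known from an epimutation that blocks fruit ripening, SBP13 acts in inflorescence and shoot architecture, and SBP15 acts on axillary bud growth. MicroRNAs are not measured in these libraries.

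The WRKY-B-GFP plants carry WRKY-B fused to GFP under the 35S promoter, and their libraries are OE1, OE30 and OE9. The labels give their cultivar as Compound raceme and their tissue as flower. Control CK2 is labelled as bud of the same cultivar and control CK1 as bud of the cultivar monomaker, with 3 libraries in each of the 3 groups. The study describes axillary buds of the cultivar Ailsa Craig, which conflicts with these labels and could not be settled here. The labels name no genotype for the OE libraries, which were taken as WRKY-B-GFP because ChIP-Seq peak names in the study, from these plants, carry OE_9. Whether OE1, OE30 and OE9 are 3 lines or 3 samples is not stated, and p-values measure only the spread between these libraries. By the labels, overexpression and tissue cannot be told apart in WRKY-B-GFP against either control, nor can cultivar against control CK1. No table used here pairs tissue marker genes with IDs, so the labelled tissues were not checked.

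WRKY-B (Solyc02g071130.3) was at 74.04, 93.51 and 205.7 FPKM in OE1, OE30 and OE9, against 0.08 to 0.4 FPKM in control CK2 and 0.55 to 0.87 FPKM in control CK1. FPKM scales fragments to transcript length and to the mapped total, so that levels of different genes can be set side by side. Read totals are not known. FPKM over all gene models summed to 615715 to 684351 in WRKY-B-GFP, 743707 to 769380 in control CK2 and 749973 to 759157 in control CK1. Pearson's r of log2(FPKM + 0.1) across 26296 gene models, which are not independent, was 0.948 to 0.959 between libraries of WRKY-B-GFP, 0.974 to 0.977 within control CK2 and 0.974 to 0.977 within control CK1.

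The summed FPKM of the family was higher in the WRKY-B-GFP libraries than in either control. Over control CK1 this excess depended on SBP13 and Solyc03g114850, without which the sum was lower in WRKY-B-GFP. The sum over all 10 loci was 499, 420.05 and 478 in OE1, OE30 and OE9, against 181, 176 and 174 in the control CK2 libraries and 396, 380 and 387 in the control CK1 libraries. No library of one group overlapped those of another. The mean was 466 ± 41.0 in WRKY-B-GFP, 177 ± 3.73 in control CK2 and 388 ± 8.26 in control CK1 (SD, n = 3 each), or 7.22, 2.34 and 5.14 per 10000 FPKM of each library. This is a ratio of 2.63 over control CK2 and of 1.2 over control CK1, and these ratios became 2.11 and 1.09 when each library was divided by its median ratio to the others. Without SBP13 and Solyc03g114850, the other 8 loci summed to 206 ± 40.3 FPKM in WRKY-B-GFP, 159 ± 3.30 in control CK2 and 318 ± 5.31 in control CK1 (SD, n = 3 each), with every WRKY-B-GFP library below every control CK1 library. Of these 8, Solyc01g068100, Solyc12g038520 and Solyc05g015510 had higher means in WRKY-B-GFP than in control CK1, and the rest had lower ones. SBP3 differed most, with a mean of 30.1 FPKM in WRKY-B-GFP against 149.9 FPKM in control CK1. In bulk tissue, fewer cells of a type and less RNA per cell cannot be told apart.

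**Figure D1:**
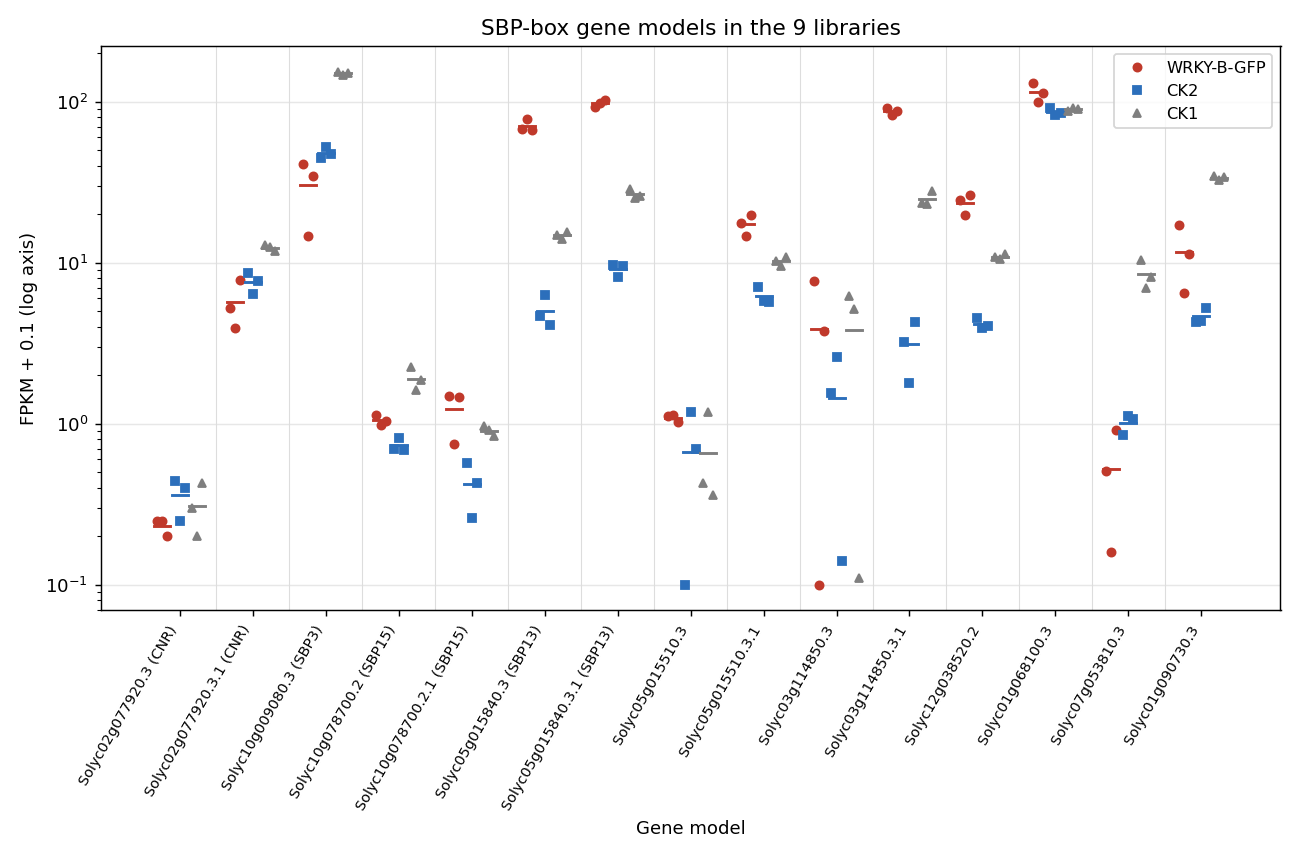
FPKM + 0.1 on a log axis for the 15 SBP-box gene models, with 1 point per library (circles WRKY-B-GFP, squares control CK2, triangles control CK1) and a bar at each group mean. SBP13 lies at 66.93 to 102.92 FPKM in WRKY-B-GFP, 4.02 to 9.54 in control CK2 and 14.04 to 28.66 in control CK1, while SBP3 lies lowest in WRKY-B-GFP and highest in control CK1.

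The composition of the family also differed between the groups. SBP13 made up 36.5 ± 4.90% of the summed FPKM in WRKY-B-GFP, 7.85 ± 0.189% in control CK2 and 10.6 ± 0.343% in control CK1 (SD, n = 3 each). Solyc03g114850 made up 19.6 ± 0.348% in WRKY-B-GFP, 2.45 ± 0.0715% in control CK2 and 7.32 ± 0.148% in control CK1. These 2 loci together held 56.1% of the family total in WRKY-B-GFP, against 10.3% in control CK2 and 17.95% in control CK1. SBP3 took the opposite place, with 6.31 ± 2.51% in WRKY-B-GFP, 27.1 ± 2.54% in control CK2 and 38.6 ± 0.160% in control CK1. Solyc01g068100 held 24.5 ± 1.42% in WRKY-B-GFP, 48.6 ± 1.96% in control CK2 and 23.1 ± 0.984% in control CK1. The leading locus was therefore SBP13 in WRKY-B-GFP, Solyc01g068100 in control CK2 and SBP3 in control CK1.

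**Figure D2:**
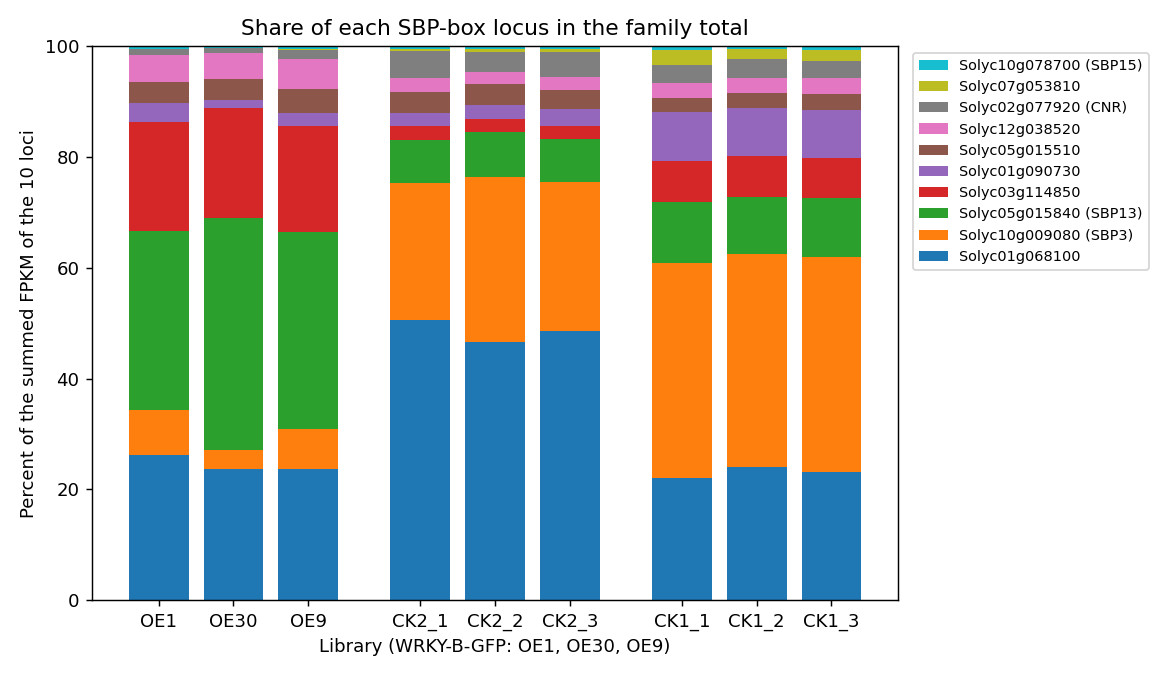
Percent of the summed FPKM of the 10 SBP-box loci held by each locus, in 1 stacked bar per library (OE1, OE30 and OE9 are WRKY-B-GFP). SBP13 and Solyc03g114850 fill 56.1% of the WRKY-B-GFP bars on average, against 10.3% in control CK2 and 17.95% in control CK1.

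The whole table was fitted with limma-trend on a log2(FPKM + 0.1) scale, and a call required at least a 2-fold change together with a Benjamini-Hochberg adjusted p below 0.05. Of the 15 gene models, 14 reached 0.5 FPKM in at least 3 libraries of each comparison and were tested. The exception was the smaller CNR model, Solyc02g077920.3, at 0.1 to 0.15 FPKM in WRKY-B-GFP, 0.15 to 0.34 FPKM in control CK2 and 0.1 to 0.33 FPKM in control CK1. Solyc10g078700.2.1 was below 0.5 FPKM in every control CK2 library. In both comparisons with control CK2 it was thus tested only through the other group, and its calls are included below. Among WRKY-B-GFP libraries, Solyc07g053810.3 reached 0.5 FPKM only in OE9 (0.81 FPKM). It met the filter against either control through that control, which favours a fall, and its calls are also included. The 3 comparisons share libraries, so their calls are not independent of each other.

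Against control CK2, 7 of the 14 SBP-box gene models tested were called, where 49.0% of all 24905 gene models were called. All 7 were higher in WRKY-B-GFP (25.8% of all gene models were called higher) and 0 were lower (23.2% of all). With no fold threshold, 8 were higher and 0 lower, where 9687 and 7569 of all 24905 gene models were. Without CK2_1, CK2_2 or CK2_3, 14.9% to 15.0% of the gene models tested were called lower, and 0 members were. Gene models expressed only in control CK2 then failed the filter, which lowers that share. Without OE1 or OE9, 1 member (SBP3 without OE1, Solyc07g053810.3 without OE9) was lower, where 24.1% and 25.9% of all were. Without OE9, Solyc07g053810.3 was tested only through control CK2, which favours a fall. The median log2 fold change was 1.27 over the 14 members and 0.17 over all gene models tested. Every WRKY-B-GFP library lay above every control CK2 library for 9 of the 14 (41.9% of all gene models) and below for 1 (33.1% of all). With FPKM summed by locus, 6 of 10 loci were called, where 48.5% of all loci were, and the 6 were higher (24.2% of all loci) and 0 lower (24.3% of all). Median-ratio scaling moved the median of all gene models by −0.31 and the share of higher calls to 40.3%, against 52.7% without it. The family then had 6 members higher and 1 lower, where 4677 and 6941 of all 24905 gene models were.

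Against control CK1, 8 of 14 members were called, where 39.2% of all 24448 gene models were called. Here 4 members were higher in WRKY-B-GFP (17.5% of all) and 4 were lower (21.8% of all, or 15.0% to 15.1% without CK1_1, CK1_2 or CK1_3). In the latter fits gene models expressed only in control CK1 failed the filter, which lowers the share. Solyc07g053810.3, among the 4 lower, met the filter through control CK1. The median log2 fold change was 0.36 over the members and 0.01 over all gene models tested. Every WRKY-B-GFP library lay above every control CK1 library for 6 members (35.9% of all gene models) and below for 5 (35.7% of all). By locus, 7 of 10 were called (39.1% of all loci), of which 3 were higher (15.8% of all loci) and 4 were lower (23.3% of all).

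Between the controls, 9 of 14 members were called, where 27.0% of all 25268 gene models were. All 9 were lower in control CK2 (14.0% of all gene models). None was called higher (13.0% of all). With no fold threshold, 0 members were higher and 11 lower, where 6332 and 11267 of all 25268 gene models were. Without CK2_1, CK2_2 or CK2_3 the share of gene models called higher was 8.27% to 8.29%, with 0 members among them. This share is lower because gene models expressed only in control CK2 then failed the filter. The median log2 fold change was −1.38 over the members, against −0.23 over all gene models tested. Every control CK2 library lay below every control CK1 library for 11 of the 14 members (47.4% of all gene models) and above for 0 (26.6% of all). By locus, 7 of 10 were called (27.6% of all loci), and the 7 were lower in control CK2 (14.3% of all loci) and 0 were higher (13.3% of all).

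**Figure D3:**
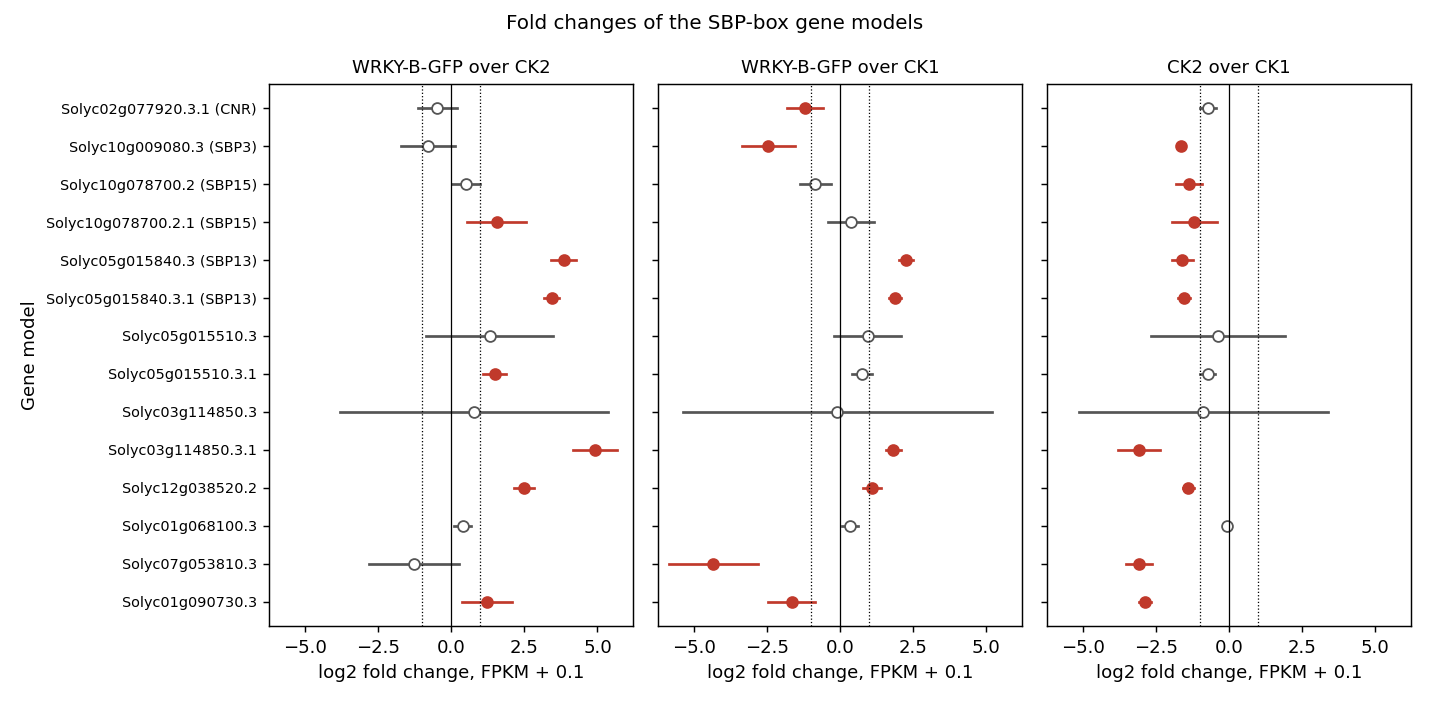
Log2 fold change of each of the 14 SBP-box gene models tested, with its 95% confidence interval from limma-trend, in 3 panels (WRKY-B-GFP over control CK2, WRKY-B-GFP over control CK1, control CK2 over control CK1). Filled red points passed both thresholds, and dotted lines mark a fold change of 2. In the panel against control CK2 all 7 called members lie to the right, and in the panel between the controls all 9 lie to the left.

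SBP13, which in tomato acts in inflorescence and shoot architecture, rose against both controls in each of its gene models. The model Solyc05g015840.3.1 (SL3.0 chromosome 5, 12395136 to 12399001, plus strand) was at 92.79, 97.86 and 102.92 FPKM in OE1, OE30 and OE9, against 9.54, 8.03 and 9.42 FPKM in control CK2 and 28.66, 24.99 and 25.74 FPKM in control CK1. All WRKY-B-GFP libraries were above all control libraries, and control CK1 was above control CK2 without overlap. Its log2 fold change was 3.43 against control CK2 (limma-trend SE 0.10, adjusted p = 1.41e-06), a 10.9-fold ratio of mean FPKM. Against control CK1 it was 1.88 (limma-trend SE 0.09, adjusted p = 2.55e-05), a 3.70-fold ratio. The second model, Solyc05g015840.3, was at 67.89, 77.87 and 66.93 FPKM in WRKY-B-GFP, 4.54, 6.17 and 4.02 FPKM in control CK2 and 14.78, 14.04 and 15.51 FPKM in control CK1. It rose by 3.84 in log2 against control CK2 and by 2.25 against control CK1 (limma-trend SE 0.17 and 0.09, adjusted p = 8.30e-06 and 1.69e-05). Between the controls, Solyc05g015840.3.1 and Solyc05g015840.3 fell by 1.55 and 1.59 in control CK2 (adjusted p = 5.49e-06 and 8.55e-05). In the control CK2 mean, Solyc05g015840.3.1 was more abundant than 68.3% of all gene models, in control CK1 than 85.8%, and in WRKY-B-GFP than 96.7%. The study lists this locus among genes both bound by WRKY-B in its ChIP-Seq and changed in its RNA-Seq. The RNA-Seq part of that choice used these data, so the direction here is not independent evidence. Binding was not examined here.

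Solyc03g114850 had the greatest fold change of the family against control CK2. Its model Solyc03g114850.3.1 (SL3.0 chromosome 3, 66227640 to 66233430, plus strand) was at 91.16, 82.96 and 87.99 FPKM in OE1, OE30 and OE9, against 3.13, 1.7 and 4.2 FPKM in control CK2 and 23.36, 22.97 and 27.72 FPKM in control CK1. The groups again did not overlap, in the order WRKY-B-GFP, control CK1, control CK2. Over control CK2 this model differed by 4.90 in log2 (limma-trend SE 0.31, adjusted p = 3.35e-05), a 29.0-fold ratio of mean FPKM, and by 1.82 against control CK1 (SE 0.10, adjusted p = 4.31e-05). Between the controls it fell by 3.08 in control CK2 (SE 0.30, adjusted p = 9.05e-05). The second model, Solyc03g114850.3, varied widely within each group. It was at 7.6, 0 and 3.68 FPKM in OE1, OE30 and OE9, 1.46, 2.51 and 0.04 FPKM in control CK2 and 6.13, 5.03 and 0.01 FPKM in control CK1. Its groups overlapped, and its log2 fold change of 0.78 against control CK2 had a 95% interval of −3.81 to 5.37. The sum of both models varied far less, at 98.76, 82.96 and 91.67 FPKM in WRKY-B-GFP, 4.59, 4.21 and 4.24 FPKM in control CK2 and 29.49, 28 and 27.73 FPKM in control CK1. In log2, the sum differed by 4.36 from control CK2 (SE 0.10) and by 1.68 from control CK1 (SE 0.09), with adjusted p = 3.57e-07 and 3.19e-05 from limma-trend.

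Solyc12g038520 and Solyc05g015510 followed the same order of groups at lower levels. Solyc12g038520.2 was at 24.53, 19.8 and 26.28 FPKM in WRKY-B-GFP, 4.44, 3.83 and 3.93 FPKM in control CK2 and 10.8, 10.42 and 11.17 FPKM in control CK1. It rose by 2.50 in log2 against control CK2 (limma-trend SE 0.14, adjusted p = 2.20e-05) and by 1.11 against control CK1 (SE 0.13, adjusted p = 0.000572). With median-ratio scaling the second value was 0.98, short of a fold change of 2. Control CK2 lay below control CK1 by −1.39 in log2 (SE 0.08, adjusted p = 6.96e-06). The model Solyc05g015510.3.1 (SL3.0 chromosome 5, 10767638 to 10773689, minus strand) was at 17.55, 14.54 and 19.82 FPKM in WRKY-B-GFP, 6.96, 5.67 and 5.61 FPKM in control CK2 and 10.19, 9.41 and 10.74 FPKM in control CK1. It rose by 1.49 against control CK2 (limma-trend SE 0.16, adjusted p = 0.000292). Against control CK1 the difference of 0.76 (SE 0.14, adjusted p = 0.00384) was below the fold threshold, as was −0.73 for control CK2 over control CK1 (adjusted p = 0.000669). The small second model, Solyc05g015510.3, was at 0.93 to 1.03 FPKM in WRKY-B-GFP, 0 to 1.09 FPKM in control CK2 and 0.26 to 1.08 FPKM in control CK1. Its groups overlapped and no comparison passed with all libraries. By limma-trend, WRKY-B-GFP over control CK1, at 0.94 (adjusted p = 0.128), passed without CK1_2 (1.47, adjusted p = 0.0328). In that fit no control CK1 library reached 0.5 FPKM, so the model was tested only through WRKY-B-GFP, which favours a rise.

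The fixed order WRKY-B-GFP above control CK1 above control CK2, with no library of one group inside another, held for 5 of the 14 members. These were both SBP13 models, Solyc03g114850.3.1, Solyc12g038520.2 and Solyc05g015510.3.1. Among the 26296 gene models that reached 0.5 FPKM in 3 or more of the 9 libraries, 15.9% had this order. The order control CK1, WRKY-B-GFP, control CK2 was shown by 2 members (2.18% of all gene models), Solyc01g090730.3 and the SBP15 model Solyc10g078700.2. SBP3 alone among the members had the order control CK1, control CK2, WRKY-B-GFP (7.68% of all).

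SBP3 was the member with the highest level in control CK1. Its values were 41.18, 14.61 and 34.47 FPKM in OE1, OE30 and OE9, against 44.75, 52.37 and 46.93 FPKM in control CK2 and 153.72, 146.13 and 149.9 FPKM in control CK1. OE30 stood well below the other WRKY-B-GFP libraries, but all 3 were below every control library. SBP3 fell by 2.44 in log2 against control CK1 (limma-trend SE 0.37, adjusted p = 0.00184), with a mean 4.98-fold higher in control CK1. Against control CK2 the log2 fold change was −0.80 (95% interval −1.72 to 0.12, adjusted p = 0.105 from limma-trend), which did not pass. It passed with median-ratio scaling (−1.11, adjusted p = 0.0339) and without OE1 (−1.09, adjusted p = 0.0441). Without OE30 it shrank to −0.35, short of a fold change of 2. Control CK2 itself was lower than control CK1 with a log2 ratio of −1.64 (limma-trend SE 0.06, adjusted p = 7.44e-07).

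CNR, whose epimutation blocks ripening of tomato fruit, was lower in WRKY-B-GFP than in control CK1. The model Solyc02g077920.3.1 (SL3.0 chromosome 2, 43310563 to 43313396, minus strand) was at 5.15, 3.81 and 7.76 FPKM in WRKY-B-GFP, 8.48, 6.27 and 7.62 FPKM in control CK2 and 12.75, 12.39 and 11.81 FPKM in control CK1. WRKY-B-GFP and control CK2 overlapped, and both lay below control CK1. CNR fell by 1.19 in log2 in WRKY-B-GFP against control CK1 (limma-trend SE 0.25, adjusted p = 0.00724), a call that was lost without OE30 (−0.95). Against control CK2 its log2 fold change was −0.46 (95% interval −1.13 to 0.21, adjusted p = 0.180). Between the controls it was −0.73, control CK2 over control CK1, below the fold threshold (limma-trend SE 0.11, adjusted p = 0.000995).

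Solyc07g053810 and Solyc01g090730 were, with Solyc03g114850, the members that differed most between the controls. Solyc07g053810.3 was at 0.41, 0.06 and 0.81 FPKM in OE1, OE30 and OE9, 0.75, 1.02 and 0.97 FPKM in control CK2 and 10.29, 6.87 and 8.08 FPKM in control CK1. WRKY-B-GFP and control CK2 overlapped at low levels, and control CK1 stood apart from both. Against control CK1 the log2 fold change was −4.32 in WRKY-B-GFP (limma-trend SE 0.63, adjusted p = 0.00148) and −3.06 in control CK2 (SE 0.19, adjusted p = 8.49e-06). For WRKY-B-GFP the model met the filter through control CK1, since only OE9 reached 0.5 FPKM, which favours a fall. The limma-trend difference of WRKY-B-GFP from control CK2, −1.26 (95% interval −2.79 to 0.27, adjusted p = 0.120), did not pass with all libraries. It passed without OE9 (−1.82, adjusted p = 0.0306). In that fit no WRKY-B-GFP library reached 0.5 FPKM, so the model was tested only through control CK2, which favours a fall. Without OE30 the difference shrank to −0.56.

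Solyc01g090730.3 lay between the controls in WRKY-B-GFP. It was at 16.95, 6.36 and 11.21 FPKM in OE1, OE30 and OE9, 4.2, 4.25 and 5.16 FPKM in control CK2 and 34.53, 32.68 and 33.74 FPKM in control CK1. The 3 groups did not overlap. It fell by 1.65 in log2 against control CK1 (limma-trend SE 0.33, adjusted p = 0.00580) and rose by 1.22 against control CK2 (SE 0.35, adjusted p = 0.0201). The rise against control CK2 was not called without OE1 (0.89), without OE9 (adjusted p = 0.0532), without CK2_1 (adjusted p = 0.0532), without CK2_2 (adjusted p = 0.0523) or with median-ratio scaling (0.91). Control CK2 was lower than control CK1 with a log2 ratio of −2.87 (limma-trend SE 0.09, adjusted p = 3.17e-07), a 7.42-fold ratio of mean FPKM.

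SBP15, which acts on axillary bud growth in tomato, was among the least abundant members. Solyc10g078700.2 was at 1.04, 0.88 and 0.94 FPKM in WRKY-B-GFP, 0.6, 0.72 and 0.59 FPKM in control CK2 and 2.14, 1.51 and 1.77 FPKM in control CK1. Its groups did not overlap, yet neither WRKY-B-GFP difference was called, with a log2 fold change of 0.52 against control CK2 (adjusted p = 0.0569) and −0.85 against control CK1 (adjusted p = 0.0150, below the fold threshold). The second model, Solyc10g078700.2.1 (SL3.0 chromosome 10, 60559418 to 60566853, minus strand), was at 1.38, 0.65 and 1.36 FPKM in WRKY-B-GFP, 0.47, 0.16 and 0.33 FPKM in control CK2 and 0.87, 0.81 and 0.74 FPKM in control CK1. WRKY-B-GFP was above control CK2 without overlap and overlapped control CK1 through OE30. No control CK2 library reached 0.5 FPKM, so the model was tested against control CK2 only through WRKY-B-GFP, which favours a rise. Without any 1 WRKY-B-GFP library it was not tested there. It rose by 1.56 against control CK2 (limma-trend SE 0.42, adjusted p = 0.0157), a call lost with 1 added in place of 0.1 (0.68), without CK2_2 (adjusted p = 0.0758) and without CK2_3 (adjusted p = 0.0572). Against control CK1 it was at 0.38 (adjusted p = 0.349), opposite in sign to the first model. Summed over both models, SBP15 was at 2.42, 1.53 and 2.3 FPKM in WRKY-B-GFP, 1.07, 0.88 and 0.92 FPKM in control CK2 and 3.01, 2.32 and 2.51 FPKM in control CK1. This sum differed by 1.03 in log2 against control CK2 (limma-trend SE 0.23, adjusted p = 0.00653) and by −0.33 against control CK1 (adjusted p = 0.238), with libraries overlapping in the second comparison only. Between the controls both models were lower in control CK2, by −1.36 and −1.18 (adjusted p = 0.000573 and 0.0138 from limma-trend), and with 1 added they were at −0.77 and −0.46, short of a fold change of 2. The call of Solyc10g078700.2.1 between the controls was also lost without CK2_2 (−0.87) and with median-ratio scaling (−0.999, just short of a fold change of 2). There the model was tested only through control CK1, and not at all without any 1 CK1 library.

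Solyc01g068100 was high in every group and passed in none of the 3 comparisons. It was at 130.38, 99.47 and 113.13 FPKM in WRKY-B-GFP, 91.74, 82.17 and 84.48 FPKM in control CK2 and 87.61, 91.42 and 89.92 FPKM in control CK1. All libraries of WRKY-B-GFP were above those of the controls, which overlapped each other. Its log2 fold change was 0.40 against control CK2 (95% interval 0.11 to 0.70) and 0.34 against control CK1 (95% interval 0.06 to 0.62), with adjusted p = 0.0246 and 0.0385 from limma-trend, both below the fold threshold. With median-ratio scaling these values were 0.09 and 0.21. Between the controls it differed by −0.06 (95% interval −0.17 to 0.05), which became 0.16 with that scaling. It exceeded 97.3% of all gene models in the WRKY-B-GFP mean, 95.5% in control CK2 and 95.8% in control CK1.

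Within WRKY-B-GFP the members varied unequally. The highest library exceeded the lowest 1.10-fold for Solyc03g114850.3.1, 1.11-fold for Solyc05g015840.3.1, 2.67-fold for Solyc01g090730.3, 2.82-fold for SBP3 and 13.5-fold for Solyc07g053810.3. In the last 3 genes OE30 was the lowest library. OE30 was the lowest of the 3 for 11 of the 15 gene models, against 44.7% of the 20747 gene models at 0.5 FPKM or more in all WRKY-B-GFP libraries. Only 12 of the 15 members were at that level, so these shares are not like for like. Solyc03g114850.3 and Solyc07g053810.3, lowest in OE30 at 0 and 0.06 FPKM, were not. The median SD of log2(FPKM + 0.1) over the libraries of WRKY-B-GFP was 0.20 for the 12 members at that level and 0.27 for all such gene models, and for all gene models it was 0.11 in control CK2 and 0.09 in control CK1. The order of the libraries by WRKY-B level (OE1, OE30, OE9, from low to high) was shared by 1 of the 15 members, Solyc05g015840.3.1, and by 14.1% of the 20747 gene models at 0.5 FPKM or more.

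The likeness of the members' profiles was described by Pearson's r of log2(FPKM + 0.1) over the 9 libraries. These libraries form 3 groups, so r mostly follows the group means. The highest r between loci was 0.990, for Solyc05g015510.3.1 and Solyc12g038520.2, followed by 0.987 for Solyc05g015840.3.1 and Solyc12g038520.2. SBP3 and Solyc07g053810.3 had r = 0.984, and CNR (Solyc02g077920.3.1) had r = 0.952 with Solyc07g053810.3. After subtraction of the group means, r was 0.964 for Solyc05g015510.3.1 with Solyc12g038520.2, 0.923 for SBP3 with Solyc01g090730.3 and 0.866 for SBP3 with Solyc07g053810.3. Other pairs did not keep their likeness. For Solyc05g015840.3.1 with Solyc12g038520.2 the centred r was 0.328, and for Solyc05g015840.3 with Solyc03g114850.3.1 it was −0.873, against 0.940 before centring. Members with unlike group means could also have a high centred r. For CNR (Solyc02g077920.3.1) it was 0.879 with Solyc12g038520.2 (−0.239 before centring) and 0.823 with Solyc05g015510.3.1 (−0.254). The largest deviations of these genes, and of SBP3, Solyc01g090730.3 and Solyc07g053810.3, lay in WRKY-B-GFP, which weighs most in their centred r. The likeness did not hold in every group. In CK1_3 CNR was lowest for control CK1, and Solyc12g038520.2 and Solyc05g015510.3.1 highest. Among control CK2 libraries SBP3 was highest in CK2_2 and Solyc01g090730.3 in CK2_3.

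The gene models of a locus could share reads, which the authors' counting may have split between them. After subtraction of the group means, r between the models of a locus was −0.61 for SBP13, −0.66 for Solyc05g015510, −0.43 for Solyc03g114850, −0.04 for SBP15 and −0.03 for CNR. At Solyc03g114850 the smaller model held 4.13% of the locus FPKM in WRKY-B-GFP, 30.8% in control CK2 and 13.1% in control CK1. There the SD of log2(FPKM + 0.1) in control CK2 was 0.64 for the larger model and 0.07 for the sum of both. None of the 5 members with a position in the table overlapped another gene model with a position. The sources used here do not say if strand was used in counting.

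**Figure D4:**
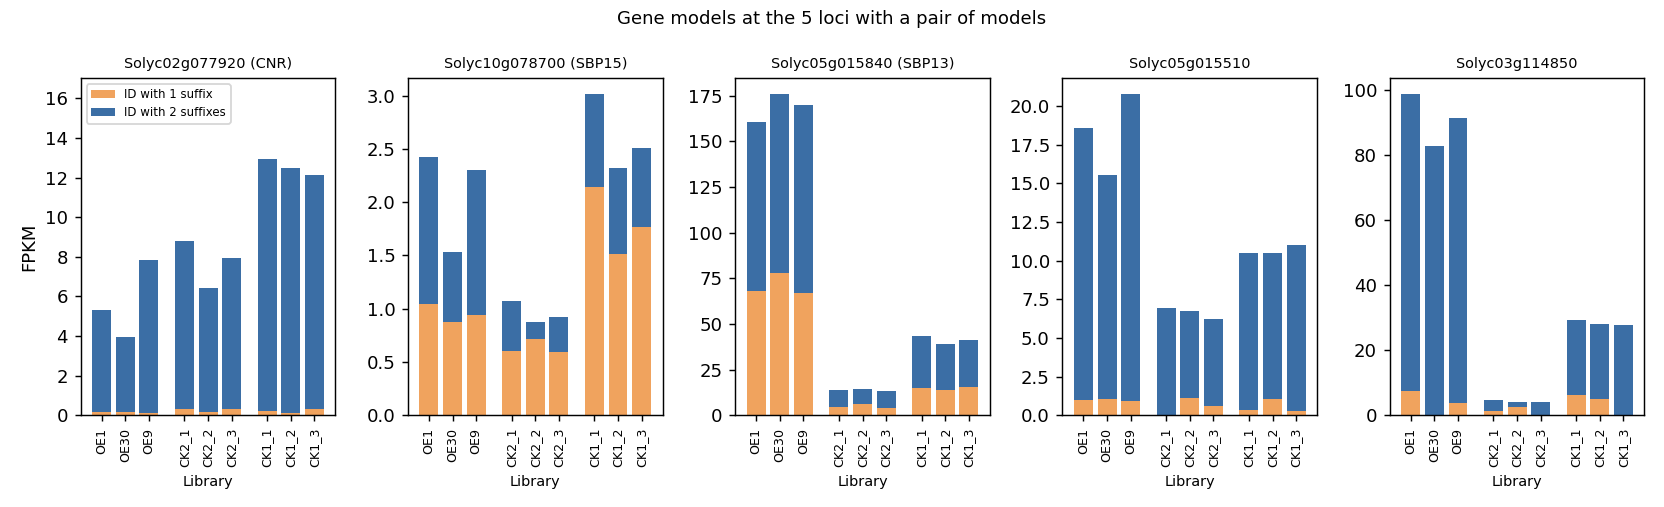
FPKM in each library at the 5 loci with a pair of gene models, as stacked bars (orange, ID with 1 suffix; blue, ID with 2 suffixes), with a scale of its own for each locus. The bars of Solyc03g114850 have no visible orange part in OE30, CK2_3 and CK1_3, where Solyc03g114850.3 is at 0, 0.04 and 0.01 FPKM, while the whole bars stay close to those of the other libraries of their group.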

How the data were processed

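RNA-Seq of 9 tomato libraries was analysed, 3 each of WRKY-B-GFP, control CK2 and control CK1. The authors deposited FPKM per gene model, rounded to 2 decimals. Their table also holds the authors' own log2 fold changes, p-values and q-values, which were not used. Tools in the submitters' processing notes are DESeq2 1.4.5, HISAT2 2.0.4, RSEM 1.2.12 and Bowtie2 2.2.5, with no roles given. Positions in the table are on SL3.0, while the study names SL4.0. Read totals are unknown, so precision rests on the spread of 3 libraries.

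The main test was limma-trend (limma 3.58.1, R 4.3.3) on log2(FPKM + 0.1), fitted to the libraries of the groups compared after removal of gene models that did not reach 0.5 FPKM in 3 of them. The added 0.1 understates changes of low genes. Calls needed a 2-fold change and, after Benjamini-Hochberg adjustment, p below 0.05, as the text of the study states, although a gene list in its supplement also holds genes whose adjusted p is above this. Fits were tested on simulated data. Sums and figures used Python 3.11.15, pandas 2.3.3 and matplotlib 3.10.9.

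The members and lists were chosen with earlier results of these data known. All gene models of the 10 loci are named. The RefSeq table (41476 genes) shares no ID with the deposited one, so pathway genes and tissue markers listed by symbol could not be filled, and no sequence is shown. Alternatives were an added value of 1 or 0.01, no filter, median-ratio scaling, all 9 libraries in 1 fit, FPKM summed by locus, no fold threshold, leaving out each library, and a replicate block between the controls.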

Additional observations from a re-analysis of the deposited data

How the results depend on the processing

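Over the 42 log2 fold changes of members and 497 refits, 478 kept their side of the thresholds, 14 lost a call, 5 gained one and 0 called values reversed. Members called numbered 5 to 7 against control CK2, where 40.1% to 49.0% of all gene models or loci were called. They numbered 7 to 9 against control CK1 (31.2% to 40.4% of all) and 7 to 9 between the controls (20.0% to 27.6% of all). With no fold threshold they numbered 8, 11 and 11, where 69.3%, 62.6% and 69.6% of all gene models were called. Over single libraries left out the counts with the threshold were 5 to 6, 7 to 9 and 8 to 9. With no fold threshold 15307 gene models were called for WRKY-B-GFP against control CK1, instead of 9595, and 17599 between the controls, instead of 6826, since the threshold itself was removed. Leaving out 1 control library moved the count of gene models called in 1 direction by over 1.5 times, with fewer gene models tested. The filter still asked for 0.5 FPKM in 3 libraries, so gene models expressed only in the shortened group were no longer tested. Without 1 CK2 library 3368 to 3392 were lower in WRKY-B-GFP than in control CK2, instead of 5773 (64.4% to 64.9% of calls higher, instead of 52.7%), and 1968 to 1974 were higher in control CK2 than in control CK1, instead of 3283. Without 1 CK1 library 3419 to 3450 were lower in WRKY-B-GFP than in control CK1, instead of 5323. Replicate numbers do not pair the controls (r of same-numbered deviations −0.02, 0.01 and 0.00). With the replicate block, 9 members and 6822 gene models were called between the controls, 3284 higher and 3538 lower in control CK2. No block was possible against WRKY-B-GFP, which shares 1 number with each control. The ratios of the family total under median-ratio scaling, chosen after seeing the data, were 2.11 for WRKY-B-GFP over control CK2, instead of 2.63, and 0.533 for control CK2 over control CK1, instead of 0.457. The scaling moved the median of all gene models by −0.31 against control CK2, −0.13 against control CK1 and 0.22 between the controls, where 59.2% of calls were then higher, instead of 48.1%. Without filter the CNR model Solyc02g077920.3 was tested and not called. Gene models near 0.5 FPKM, such as Solyc10g078700.2.1, dropped out of some fits with a library left out. Unknown depth limits what can be said below about 1 FPKM.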

Other observations

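The opposed movement of paired gene models was not particular to the SBP-box loci. Over the 3650 loci with 2 gene models that both averaged 0.5 FPKM or more, the median r between the models, after subtraction of the group means, was −0.21, and r was below 0 for 62.3% of loci. Of the 5 SBP-box loci with 2 models, 4 reached this level, and r was below 0 in all 4, though only −0.04 for SBP15. Each r rests on 9 libraries, and the loci are not independent. A difference in a single gene model of such a locus is therefore best read beside the locus sum.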
